A study of Mus musculus with 12 samples.

Results

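Plin2, Acot2, Crot, Pex11a, Vnn1 and Dbi are 6 genes of fatty acid handling, here described across the kidney cortex of 6 diabetic mice. They were taken by the gene symbols of the platform's probe table, and each was represented by 1 spotted cDNA clone in 2 adjacent spots. They make up 6 of the 5870 named genes measured, and all 6 passed the filter on dim clones. The genes were selected on their levels in these same animals, so those levels and the tests of them are a description and support nothing further. The study compared 3 diabetic mice, treated with STZ (streptozotocin, which kills pancreatic beta cells and so causes diabetes), with 3 menopausal/diabetic mice, treated with VCD and STZ. VCD is 4-vinylcyclohexene diepoxide, an industrial compound that depletes primordial and primary ovarian follicles and serves in rodents as a model of menopause. Both groups therefore carried the STZ treatment, RNA of both was taken 6 weeks after STZ, and neither group lacked diabetes. The sources used here do not give strain, age, or the dose and timing of VCD. Amplified RNA of the animals was hybridised in pairs to 12 2-colour arrays, with each animal on 4 arrays, 2 in each dye.

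Fatty acids in a cell are carried as esters of coenzyme A, stored in lipid droplets as triglyceride, or shortened by beta-oxidation in mitochondria and peroxisomes. PPAR-alpha, a nuclear receptor that binds fatty acids, pairs with a retinoid X receptor on promoters and enhancers and raises the transcription of genes of all 3 routes. The proximal tubule, the most abundant part of the cortex, draws most of its energy from fatty acid oxidation, and its PPAR-alpha targets are known to answer to fasting and to fibrate drugs.

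The arrays and their labels limit what follows. Median signal over local background was 25.3 to 209 intensity units per array for Alexa Fluor 546 and 14.6 to 107 for Alexa Fluor 647. Diabetic animal 3 stood apart from the other animals: the SD of its levels over all genes and unnamed clones was 0.193 on the log2 scale, against 0.102 to 0.116 in the other 5, and it was the most extreme animal for 33.5% of them. The animal identifiers inside 11 of the 12 scanner files matched the titles, and the array titled diabetic 2 and diabetic 3 carried another identifier for both dyes. Over all genes, the titled pair of animals was the best predictor of 0 of 12 arrays from the other arrays, and 5 arrays were better predicted with the pair turned round. The columns of the deposited log2 table matched other arrays than those they are named for. Taken in turn, the columns matched the arrays in the order of their slide numbers. Each level below therefore rests on the titles of the scanner files. Cortex was checked by markers of the proximal tubule. Miox, which starts the breakdown of inositol, Lrp2, the endocytic receptor megalin, and Gatm, which makes the precursor of creatine, were measured, 3 of the 11 markers listed, and were detected, as the scanner called it in Alexa Fluor 546, on 10 to 12 of the 12 arrays.

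All 6 genes were highest in diabetic animal 3. A level is the log2 value of an animal less the mean over all 6 animals. The level of that animal lay above the mean of the other 5 by 1.08 for Crot to 2.70 for Plin2, a fold of 2.12 to 6.50. The size depended on background correction: without it, the excess over diabetic animals 1 and 2 was 1.63 and not 2.63 for Plin2, 0.48 and not 1.14 for Acot2, 0.57 and not 1.14 for Pex11a, and 0.365 and not 0.80 for Crot. For Vnn1 it was 1.06 without correction and 1.51 with it, and for Dbi 0.75 and 1.08. Across all 9955 genes and unnamed clones tested, diabetic animal 3 was the highest of the 6 animals for 26.8%, and it lay 1 or more above the mean of the other 5 for 0.281%, which is 28 genes or clones, the 6 genes among them. The genes were chosen for this pattern, so their counts are given beside those shares and nothing is read from them. Every array carried whole cortex, so more cells of a type and more RNA per cell cannot be told apart.

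**Figure D1:**
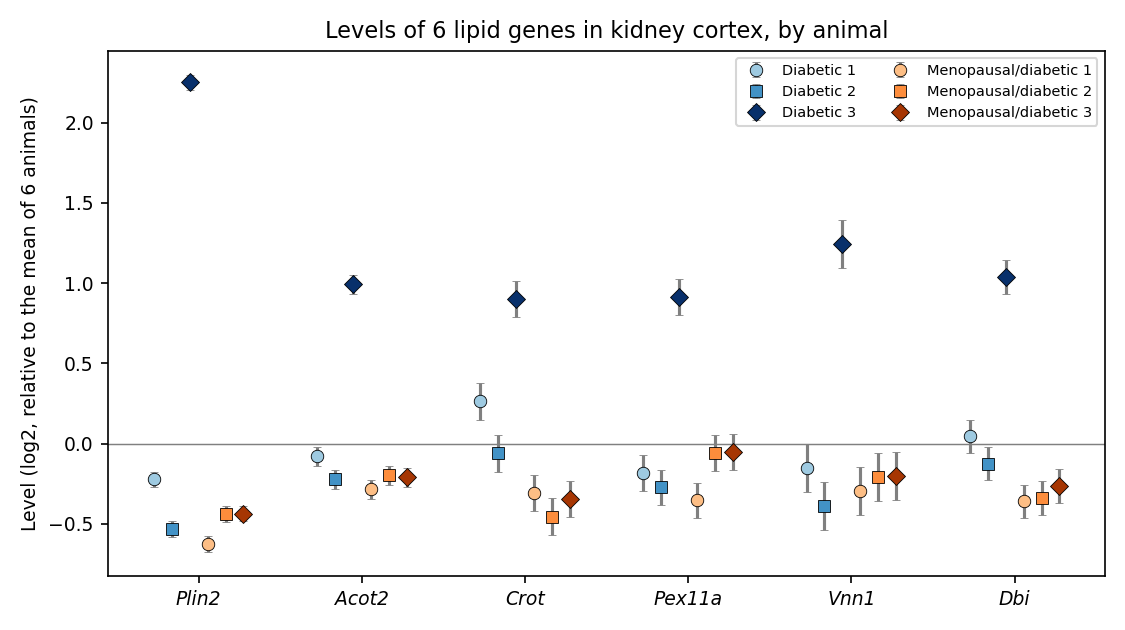
Levels of Plin2, Acot2, Crot, Pex11a, Vnn1 and Dbi in each of the 6 animals (log2, relative to their mean). Points are animals and bars are the SE of a level from the scatter between arrays; diabetic animal 3 lies above the other 5 animals for each gene.

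Plin2, perilipin 2 or adipophilin, coats the lipid droplets of most cells outside fat tissue and shields their triglyceride from lipases. Its levels were -0.22, -0.53 and 2.25 in diabetic animals 1, 2 and 3 and -0.62, -0.44 and -0.44 in menopausal/diabetic animals 1, 2 and 3. Diabetic animal 3 stood alone, and the other 2 diabetic animals overlapped the menopausal/diabetic animals, of which the lowest was animal 1. Among the other 5 animals diabetic animal 1 came next, above menopausal/diabetic animal 3, and the remaining neighbours in the order lay closer than the residual SD between arrays of 0.12. Here and below that SD is the scatter of a single array, and the SE of a level was smaller (0.049 for Plin2 to 0.150 for Vnn1). Gaps within the SD are therefore not read as equal levels. Plin2 had the second highest value of all 9955 genes and clones for diabetic animal 3 against the other 5 (rank 2). On the array with menopausal/diabetic animal 1 its signal over background was 11190 intensity units for diabetic animal 3 (Alexa Fluor 546) and 1449 for its partner (Alexa Fluor 647). With the dyes the other way, on the array with menopausal/diabetic animal 2, the signal was 7465 for diabetic animal 3 and 215 for its partner. These signals are not normalized. After normalization the log2 ratios of diabetic animal 3 over its partner on these arrays were 2.37 and 3.16, so the difference was seen in both dyes.

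Dbi, the acyl-CoA-binding protein, is a small cytosolic carrier of long-chain acyl-CoA. Its levels were 0.05, -0.12 and 1.04 in diabetic animals 1 to 3 and -0.36, -0.34 and -0.26 in menopausal/diabetic animals 1 to 3. All 3 menopausal/diabetic animals lay below all 3 diabetic animals. Acot2, a mitochondrial thioesterase that splits long-chain acyl-CoA into free fatty acid and coenzyme A, had levels of -0.08, -0.22 and 0.99 in the diabetic animals. Its menopausal/diabetic levels were -0.28, -0.20 and -0.21. Apart from diabetic animal 3, the 5 animals lay in a narrow band, with a range of 0.206, and no neighbours in the order differed by more than the residual SD of 0.14. For Dbi the corresponding residual SD was 0.25, larger than any gap between neighbours among the 5 animals.

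Crot and Pex11a are peroxisomal. Crot, carnitine octanoyltransferase, hands medium-chain acyl groups that peroxisomes have shortened to carnitine, in which form they can move to mitochondria. Its levels were 0.26, -0.06 and 0.90 in diabetic animals 1 to 3 and -0.31, -0.45 and -0.34 in menopausal/diabetic animals 1 to 3, so the groups did not overlap. It was the gene with the widest range among the 5 animals other than diabetic animal 3, 0.718, and the gap between diabetic animals 1 and 2 was the 1 gap among these 5 that exceeded its residual SD of 0.27. Pex11a, a membrane protein that elongates peroxisomes before they divide, had levels of -0.18, -0.27 and 0.91 in the diabetic animals. In the menopausal/diabetic animals its levels were -0.35, -0.06 and -0.05. Here the 2 lower diabetic animals lay between the menopausal/diabetic animals, and no gap among these 5 animals exceeded the residual SD of 0.26.

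Vnn1, vanin 1, is a pantetheinase held on the outer cell surface by a lipid anchor, where it releases cysteamine and pantothenate, the vitamin from which coenzyme A is made. Its levels were -0.15, -0.39 and 1.24 in diabetic animals 1 to 3 and -0.29, -0.21 and -0.20 in menopausal/diabetic animals 1 to 3. Diabetic animal 2 was the lowest of the 6 and diabetic animal 3 the highest, and all 3 menopausal/diabetic animals fell between diabetic animals 1 and 2. The residual SD of 0.35 was the largest of the 6 genes and exceeded every gap among the 5 lower animals.

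The difference of diabetic animal 3 from its hybridisation partner can be read from 4 single arrays without a fit, but still rests on their titles. The array with diabetic animal 2 carried identifiers that differ from its title. That with diabetic animal 1 was among the 5 arrays better predicted with the pair turned round (rank 17 of 30 pairs as titled, 14 turned). On the log2 scale, Plin2 was 2.12 above diabetic animal 1, 3.17 above diabetic animal 2, 2.37 above menopausal/diabetic animal 1 and 3.16 above menopausal/diabetic animal 2. For Acot2 the ratios over the same partners were 1.00, 1.22, 1.30 and 1.24, and for Dbi they were 1.05, 1.31, 1.44 and 1.13. These genes had like values over partners of both groups. The ratios of Vnn1 were 0.96, 1.82, 1.95 and 1.28, those of Pex11a were 0.99, 1.29, 1.59 and 0.64, and those of Crot were 0.70, 0.91, 0.82 and 1.73. All 24 ratios were positive, and the lowest was that of Pex11a over menopausal/diabetic animal 2. The SD of the log2 ratios over all genes was 0.341 to 0.372 on these arrays, and 11.4% of all genes and clones were positive on all 4. For Plin2 and Crot both ratios with diabetic animal 3 in Alexa Fluor 647 exceeded both with that animal in Alexa Fluor 546, and for the other 4 genes the dyes overlapped.

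**Figure D2:**
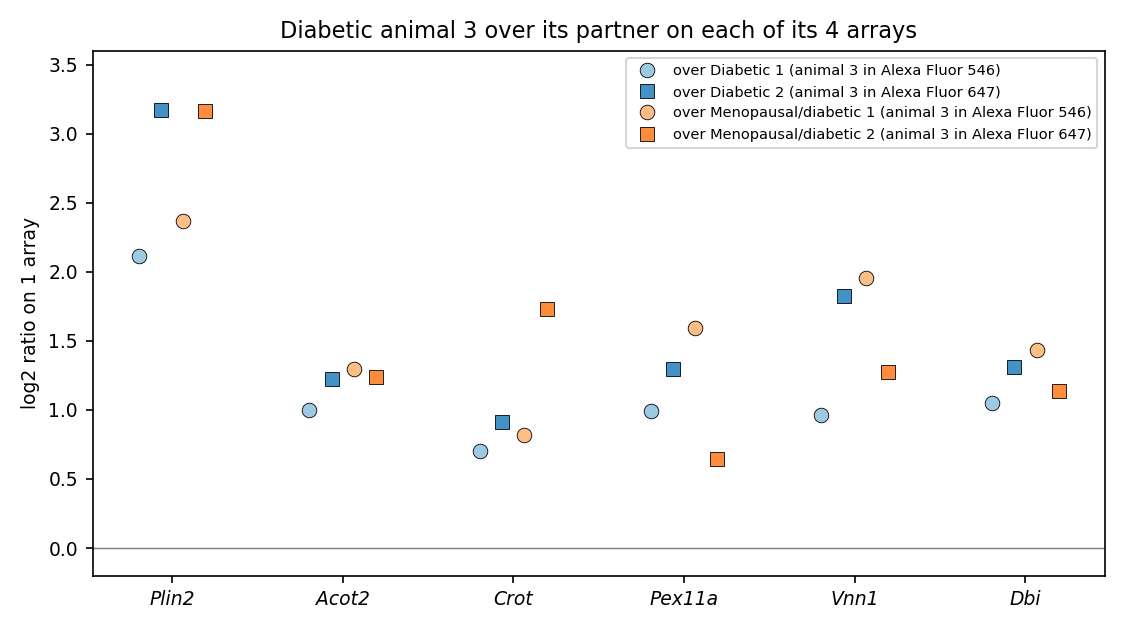
Log2 ratio of diabetic animal 3 over the animal hybridised with it, on each of its 4 arrays, for the 6 genes. Circles are arrays with diabetic animal 3 in Alexa Fluor 546 and squares those with it in Alexa Fluor 647; all 24 ratios lie above 0, with those of Plin2 between 2.12 and 3.17.

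With the 12 arrays fitted by a level per animal and a dye term, limma's moderated F test among the 3 diabetic animals gave an adjusted p of 2.19e-06 for Plin2 and 0.000812 for Acot2. It gave 0.0071 for Vnn1, 0.00774 for Pex11a and Dbi, and 0.0374 for Crot. All 6 genes were thus past the threshold of 0.05, as were 1.49% of the genes and clones tested, and since the genes were chosen on this contrast nothing is read from the count. The test sets the animals against the scatter between arrays of the same RNA, not between animals. Without the array of diabetic 2 and 3, whose identifiers differ from its title, Plin2 (adjusted p 0.000116) and Acot2 (0.0157) stayed past the threshold in that test, and the other 4 had an adjusted p of 0.103 to 0.158. Without that array the level of diabetic animal 3 still lay above the mean of diabetic animals 1 and 2 by 0.92 for Crot to 2.68 for Plin2, against 0.80 to 2.63 with it. When the arrays were given the titles of the deposited columns they match, 0 of the 6 genes were highest in diabetic animal 3 and the direction turned for all 6. Over all genes and clones the median residual SD between arrays was 0.180 with the scanner files' own titles and 0.189 with those of the deposited columns. For Plin2 it was 0.115 and 1.44, but the 6 genes were chosen on levels under the former titles, which fixes that order.

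The comparison of menopausal/diabetic with diabetic animals asks what VCD adds to diabetes. All 6 genes had a lower mean in the menopausal/diabetic group. They were chosen for a high level in diabetic animal 3, which raises the diabetic mean, so nothing is read from that direction. In limma's test on the 6 animal levels 0 of 6 passed the threshold. Over all genes and clones, 0% passed, with 831 of 9955 at an unadjusted p under 0.05. Plin2 differed by -0.998 ± 0.68 (SE, 3 animals per group, limma adjusted p 0.727), Crot by -0.74 ± 0.22 (0.535) and Dbi by -0.64 ± 0.28 (0.610). Vnn1 differed by -0.47 ± 0.40, Acot2 by -0.46 ± 0.30 and Pex11a by -0.31 ± 0.31, with limma adjusted p of 0.713 to 0.845. For Crot and Dbi, 2 of the 6 genes, all 3 menopausal/diabetic animals lay below all 3 diabetic animals, against 6.58% of all genes and clones. The choice of the genes bears on this count too, so nothing is read from it.

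The group differences rested in large part on diabetic animal 3. Without it the difference was -0.12 for Plin2, -0.08 for Acot2, 0.07 for Pex11a and 0.03 for Vnn1. Crot and Dbi had -0.47 and -0.28 without that animal, neither past the threshold in limma's test (adjusted p 0.472 and 0.506). For both, diabetic animals 1 and 2 lay above all 3 menopausal/diabetic animals. The share of all genes and clones in that order was not computed, so nothing is read from it. In these 5 animals diabetic animal 1 was the highest for 5 of the 6 genes, the exception being Pex11a, where menopausal/diabetic animal 3 was highest. Diabetic animal 1 was the highest of the 5 for 21.3% of all genes and clones. When each of the 12 arrays counted as a replicate, which sets the groups against array error, limma passed Plin2 (adjusted p 0.00019), Acot2 (0.0381), Crot (0.0389) and Dbi (0.04). In that fit Pex11a (0.279) and Vnn1 (0.199) missed the threshold. Over all genes and clones, 22 of 9955 passed it. The 6 genes were chosen for their level in diabetic animal 3, so nothing is read from their count.

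**Figure D3:**
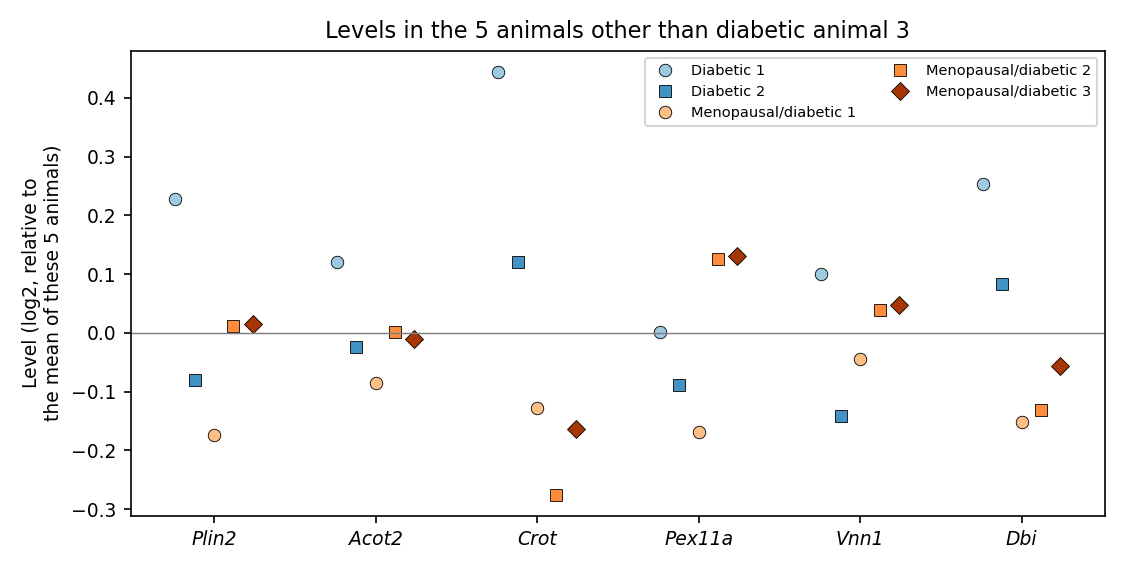
Levels of the 6 genes in the 5 animals other than diabetic animal 3 (log2, relative to the mean of these 5). Each point is an animal; diabetic animals 1 and 2 lie above the menopausal/diabetic animals for Crot and Dbi, and the groups overlap for Plin2, Acot2, Pex11a and Vnn1.

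The log2 ratios of the 6 genes varied together across the 12 arrays. The Pearson correlation of their log2 ratios was 0.70 to 0.99 over the 15 pairs of genes, with a median of 0.934, and Spearman's rho was 0.64 to 0.97. Plin2 with Acot2 had the highest Pearson correlation, 0.993 (rho 0.923), and Crot with Pex11a the lowest, 0.701 (rho 0.692). Without the 2 arrays farthest from the median of a pair's first gene, chosen pair by pair, the Pearson correlations were 0.583 to 0.990. Arrays of diabetic animal 3 remained in each of these, so the range does not show the correlations without that animal. The 12 arrays share 6 animals and are not independent, and 4 of them carry diabetic animal 3, so these values describe the arrays and carry no p.

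Among the 8 arrays without diabetic animal 3 the 15 correlations ran from -0.28 to 0.92, with a median of 0.183, and 6 were negative. Plin2, Acot2, Crot and Dbi varied together there, with 0.62 to 0.92 over their 6 pairs, highest for Crot with Dbi (rho 0.905). These 4 genes were set apart from Pex11a and Vnn1 after these correlations were seen, so the division is a description. Pex11a and Vnn1 had 0.42 with each other and -0.28 to 0.18 with the other 4 genes. The correlation of a gene with the mean of the other 5 genes on these 8 arrays was 0.898 for Acot2, 0.755 for Crot, 0.739 for Dbi and 0.690 for Plin2, against -0.03 for Vnn1 and -0.10 for Pex11a. This division depended on the processing. The correlations under other inputs were added after seeing the data. With loess fitted within print blocks the 6 pairs of Plin2, Acot2, Crot and Dbi had 0.0499 to 0.854. The 8 pairs of Pex11a or Vnn1 with them had -0.30 to 0.69. With the deposited log2 ratios set against their matching arrays the ranges were 0.199 to 0.892 and -0.29 to 0.83. The correlations over all 12 arrays stayed at 0.70 or above for each pair under these inputs.

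**Figure D4:**
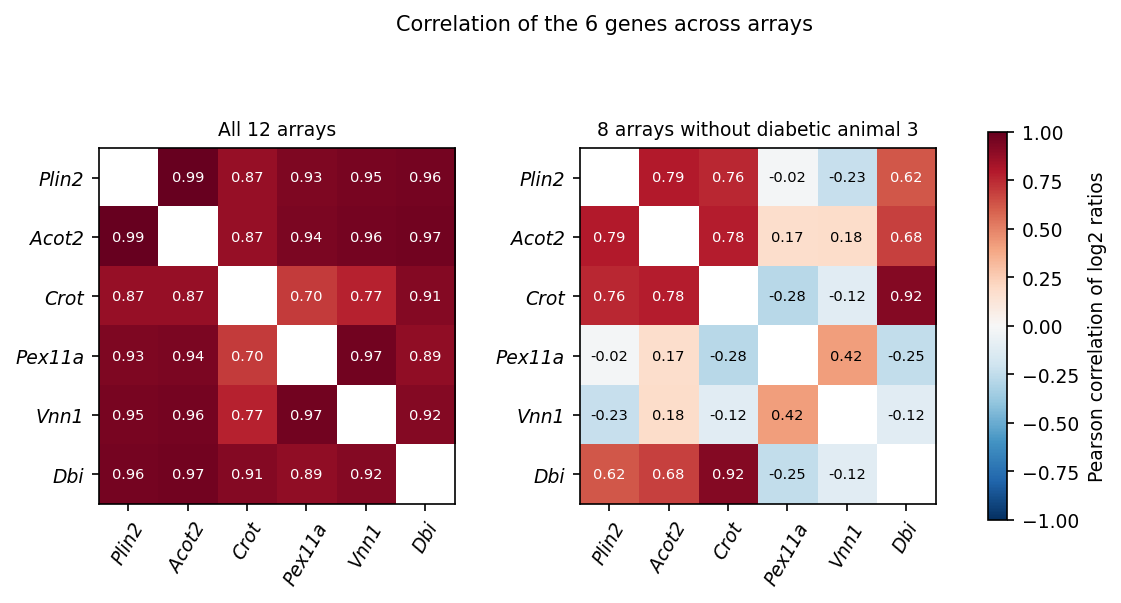
Pearson correlation of the log2 ratios for each pair of the 6 genes, over all 12 arrays (left) and over the 8 arrays without diabetic animal 3 (right). Colour and number give the correlation, 0.70 to 0.99 on the left and -0.28 to 0.92 on the right.

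The genes whose ratios were most like the mean of the 6 genes over the 12 arrays, among 5864 other named genes, were Cbr3 (Pearson correlation 0.986), S100g (0.985), Wsb1 (0.983), Cox14 (0.972) and Akap1 (0.971). Cbr3 is a carbonyl reductase of the cytosol, and S100g is the small calcium-binding calbindin of calcium-transporting epithelia. Wsb1 is a substrate-binding subunit of a ubiquitin ligase, Cox14 helps to assemble cytochrome c oxidase, and Akap1 anchors protein kinase A to mitochondria. Cbr3 had levels of -0.26, -0.48 and 2.22 in the diabetic animals and -0.59, -0.40 and -0.49 in the menopausal/diabetic animals, so it too was high in diabetic animal 3 alone. On the 8 arrays without diabetic animal 3 the correlation with the mean of the 6 genes was 0.303 for Cbr3, 0.406 for Akap1, 0.668 for Wsb1, 0.843 for S100g and 0.865 for Cox14. A correlation over 0.8 across the 12 arrays was found for 201 named genes, 3.43%.

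The genes described here were chosen for their high level in diabetic animal 3, so the other PPAR-alpha targets are not compared with them in size. These targets were set beside all genes and clones instead. This list and the lists below were also chosen with earlier results of these data known. Their counts and medians are therefore a description and give no independent support. Of 38 listed, 11 were measured. Diabetic animal 3 was the highest animal for 7 of these 11, against 26.8% of all genes and clones, and their median excess over the other 5 animals was 0.32, against 0.01 over all genes and clones. Acadl, the long-chain acyl-CoA dehydrogenase of mitochondrial beta-oxidation, had an excess of 0.78, Hadhb, the beta subunit of the mitochondrial trifunctional protein, 0.68, and Cpt2, which returns acyl groups from carnitine to coenzyme A inside mitochondria, 0.49. Hadhb was the 1 gene of the 11 to pass the F test among the diabetic animals (adjusted p 0.0486), against 1.49% of all. At the other end were Slc25a20, the carnitine carrier, at -0.03 and Hadha, the alpha subunit of the trifunctional protein, at 0.06. The Hadha clone was detected on 3 of the 12 arrays and that of Hadhb on 12, so the values of these subunits are not compared. Acadm, the medium-chain dehydrogenase, followed another pattern, with levels of 0.28, 0.30 and 0.29 in the diabetic animals and -0.35, -0.40 and -0.11 in the menopausal/diabetic animals. Its difference between the groups was -0.58 ± 0.08 (SE, 3 animals per group, limma adjusted p 0.283), with no overlap, and 0 of the 11 targets passed that test.

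Peroxisomal genes were mixed. Of 45 enzymes and transporters listed, 16 were measured, diabetic animal 3 was highest for 8, against the same 26.8%, and the median excess was 0.16. The F test passed 2 of the 16, against 1.49% of all. Nudt7, which cleaves coenzyme A and its esters in peroxisomes, had levels of -0.07, -0.21 and 0.81 in the diabetic animals and -0.19, -0.09 and -0.25 in the menopausal/diabetic animals, and passed the F test among diabetic animals (adjusted p 0.00219). Abcd3, which imports fatty acyl-CoA through the peroxisomal membrane, had an excess of 0.47 and passed it too (adjusted p 0.0246). Ech1, an enoyl-CoA isomerase detected on 6 of the 12 arrays, had an excess of 0.55 and Cat, the catalase that removes peroxide, 0.20, neither past the threshold. Pecr, a peroxisomal enoyl-CoA reductase, and Idh1, an isocitrate dehydrogenase of cytosol and peroxisomes, had -0.24 and -0.17. Of 18 genes of peroxisome biogenesis and division, 6 were measured and 0 passed the F test, with a median excess of 0.15. Pex16, which places membrane proteins in new peroxisomes, had 0.50, Mff, a receptor for the fission machinery of mitochondria and peroxisomes, 0.26, and Pex19, the carrier of peroxisomal membrane proteins, 0.19. Pex6, an ATPase that recycles the import receptor, had 0.08 and Fis1, another protein of organelle fission, -0.03.

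Of 22 lipid droplet genes listed beside Plin2, 5 were measured, 0 passed the F test among the diabetic animals, and their median excess was -0.01. Pnpla2, the triglyceride lipase ATGL, had 0.35, Rab18, a small GTPase of droplets, 0.04, and Plin3, a perilipin that also coats droplets, -0.0057. Dgat1, which makes triglyceride, had -0.07 and Bscl2, the seipin of droplet formation, -0.29. Of 13 regulators listed, 5 were measured, 0 passed, and the median excess was 0.01. The coactivator Ppargc1b, with detection on 6 of the 12 arrays, had 0.15. Med1, a Mediator subunit that binds nuclear receptors, had 0.04 and was detected on 3 arrays, and Nr1h3, the oxysterol receptor LXR-alpha, had 0.01 and was detected on 8. The retinoid receptor Rxrb, detected on 11 arrays, had -0.0016. The coactivator Ncoa1 had -0.03 with detection on 0 arrays, so the median of this list rests in part on clones not above background. Ppara itself was not among the genes measured here. Acbd5, a peroxisomal acyl-CoA-binding protein, was the 1 gene measured of 6 listed beside Dbi, with an excess of 0.13. In the test between the groups 0 genes of any of these lists passed.

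**Figure D5:**
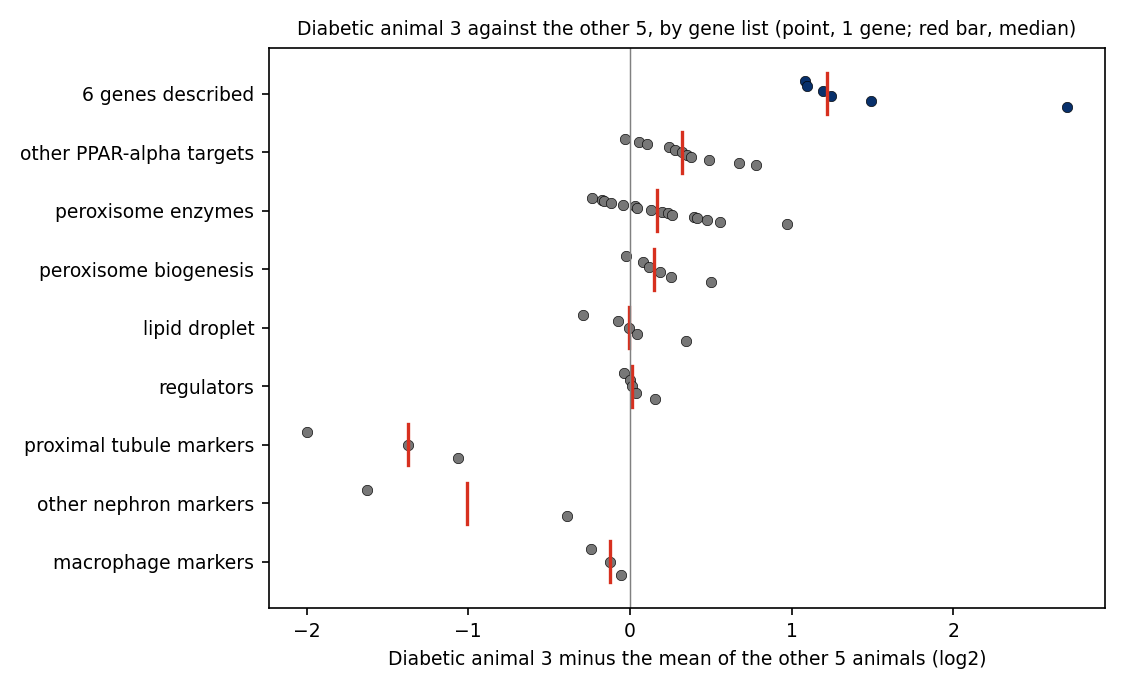
Level of diabetic animal 3 minus the mean of the other 5 animals (log2) for each measured gene of the 6 genes described, 5 lists of related genes and 3 lists of cell markers. Points are genes and red bars are medians; the median is 0.32 for other PPAR-alpha targets, -0.01 for lipid droplet genes and -1.37 for proximal tubule markers.

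The measured nephron markers of the fixed lists moved in the opposite direction in the same animal. All 3 measured proximal tubule markers were lowest in diabetic animal 3, at -0.89 for Miox, -1.15 for Lrp2 and -1.66 for Gatm, and all 3 passed the F test among the diabetic animals (adjusted p 0.00292, 0.00649 and 0.00905). Over all genes and clones diabetic animal 3 was lowest for 22.4%, and 1.49% passed that test. The mean level of the list was -1.23 in that animal and 0.08 to 0.38 in the other 5. Of the 8 markers of other nephron parts, 2 were measured, with a mean of -0.84 in diabetic animal 3 and -0.05 to 0.38 in the others: Calb1, the calbindin of distal tubules, had -1.36 there (adjusted p 0.0121) and Podxl, of podocytes, -0.33. S100g, a calbindin outside these lists that was named above for its likeness to the 6 genes, went the other way, with 0.83 in diabetic animal 3. For macrophages 3 of 10 markers were measured, with a mean of -0.12 in diabetic animal 3 and -0.09 to 0.21 in the others. For the adrenal cortex 3 of 6 were measured, with -0.01 against -0.04 to 0.06, and for blood 2 of 3, with 0.29 against -0.19 to 0.12, and 0 of these 8 genes passed. Of the 8, Cyp11a1 of the adrenal cortex was detected on 0 arrays and Alas2 of blood on 3. No adipocyte marker of 11 was on the array under its symbol, so fat tissue around the kidney, in which Plin2 and Dbi are also expressed, was not measured. The part of these shifts in the levels of the 6 genes was not tested.

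The promoters of the genes were read for the binding sequence of PPAR-alpha. In the RefSeq table for GRCm38.p6, 5 of the 6 genes (not Vnn1) had an entry of 250 bases before to 50 after the start of transcription. The core motif AGGTCA, read on both strands, was present in the window of Plin2 on the opposite strand (capitals below). It lay 218 bases before the start that this window uses. The Plin2 gene as placed below begins upstream of that start, at chr4:86670217, so the motif is nearer to that end. Of 32851 such windows of all genes, 16.3% hold the motif. The element AGGTCANAGGTCA, 2 such cores separated by 1 base, which overlaps the core by construction, was in none of the 5 genes' windows and in 0.0396% of all. The windows of Plin2 (chr4:86670010-86670309, minus strand) and Acot2 (chr12:83987611-83987910, plus strand) are printed because these 2 genes had the closest correlation across the arrays, and the Acot2 window holds no match to these letters.
Plin2: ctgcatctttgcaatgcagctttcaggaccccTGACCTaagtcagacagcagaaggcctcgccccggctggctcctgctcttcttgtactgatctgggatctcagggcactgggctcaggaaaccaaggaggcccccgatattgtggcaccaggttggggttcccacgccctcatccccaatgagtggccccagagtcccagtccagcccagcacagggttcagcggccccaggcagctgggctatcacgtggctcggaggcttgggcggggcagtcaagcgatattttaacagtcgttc
Acot2: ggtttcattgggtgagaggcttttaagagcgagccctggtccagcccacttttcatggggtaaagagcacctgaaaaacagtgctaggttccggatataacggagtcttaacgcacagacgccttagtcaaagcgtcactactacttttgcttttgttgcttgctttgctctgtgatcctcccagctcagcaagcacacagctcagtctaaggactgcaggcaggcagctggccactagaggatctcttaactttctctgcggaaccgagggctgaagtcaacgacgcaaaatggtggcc
In the same build the genes themselves lie on 6 chromosomes: Plin2 at chr4:86626910-86670217, Acot2 at chr12:83987861-83993877, Crot at chr5:8966033-8997146, Pex11a at chr7:79735957-79743131, Vnn1 at chr10:23894688-23905344 and Dbi at chr1:120113280-120121096. The match in Plin2 is a description of the sequence, and whether any receptor binds there was not measured.

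The scanner's marks were alike for the 6 clones, but the agreement of their 2 spots differed. The widest log2 gap between the spots on an array was 0.67 for Vnn1, 0.49 for Pex11a and 0.16 for Dbi. Each clone was detected on 12 of 12 arrays, 0 of their spots were marked abnormal or saturated, and the brightness of each lay at the 81.3 to 97.0 percentile of clones. Lowest and highest signals over background in Alexa Fluor 546 were 215 and 11190 intensity units for Plin2, 113 and 1393 for Acot2 and 87.2 and 1732 for Crot. They were 223 and 2748 for Pex11a, 273 and 8343 for Vnn1 and 765 and 6198 for Dbi. In Alexa Fluor 647 the lowest signals among the 6 genes were 72.3 for Acot2 and 83.6 for Crot. For each gene the highest Alexa Fluor 546 signal came from the array with diabetic animal 3 in that dye and menopausal/diabetic animal 1 in the other. Each gene rested on 1 clone, so no second clone was at hand to compare, and Acot2 belongs to a cluster of near-identical thioesterase genes whose transcripts a cDNA clone may also bind.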

How the data were processed

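Total RNA of kidney cortex was amplified, turned into cDNA and labelled with Alexa Fluor 546 or 647, per the labels. Per the file headers, the deposited scanner files give mean intensity and median local background intensity per spot; the sources used here do not name the scanner software or its settings. The authors also deposited log2 ratios with no stated normalization; their columns matched other arrays, so they served as an alternative. Spots were numbered from the bottom row of the slide and named from the platform's probe table.

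Computation used limma 3.58.1 in R 4.3.3. Normexp (offset 50) corrected the background and a loess curve per array normalized the ratios. Both spots of each clone were averaged, the 25% dimmest clones were left out, and a gene was represented by its brightest clone. The 12 log2 ratios were fitted to a level per animal and a dye term. The 6 levels were compared 3 against 3 with lmFit and eBayes, and the diabetic animals by the moderated F test, with Benjamini-Hochberg adjustment over 9955 genes and unnamed clones and a threshold of 0.05. With 3 animals per group the number of animals and arrays limits the precision. Same-numbered animals of the groups did not deviate together (correlations -0.37 to -0.04), which does not show whether they were handled as pairs.

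The 6 genes and all gene lists were chosen with earlier results of these data known. From each list the text names the 3 genes with the highest and the 2 with the lowest excess in diabetic animal 3, plus Ppara, Acadm, Plin3 and Cat where measured; some genes of the rule are not reported here. Alternatives covered background, normalization, filters, clones, arrays, titles, animals and the replicate block. The fits were tested on simulated data.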

Additional observations from a re-analysis of the deposited data

How the results depend on the processing

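The excess of diabetic animal 3 over diabetic animals 1 and 2 kept its direction for all 6 genes except under the titles of the matching deposited columns. There it was -1.22 for Plin2, -0.60 for Acot2, -0.54 for Crot, -0.46 for Pex11a, -0.71 for Vnn1 and -0.80 for Dbi, and the group difference of Crot was 0.0395. Without background correction it was 1.63, 0.48, 0.36, 0.57, 1.06 and 0.75 in the same order. With 1 loess curve per print block it was 2.32 for Plin2 and 0.74 for Dbi, and with the deposited ratios 1.43 for Acot2. Genes and clones past the F test among diabetic animals, 148 in the report, numbered 46 without background correction, 272 with print-block loess, 77 with the deposited ratios, 64 without the 2 arrays poorly predicted by their titles, 31 without the array of diabetic 2 and 3, and 0 under the deposited columns' titles. Of the 6 genes, 4, 6, 5, 3, 2 and 0 passed in these settings, and 5 without the filter on dim clones. The group test passed 0 genes under each alternative on animal levels, including the replicate block (0), and 22 with the 12 arrays as replicates. With 1 animal left out, the group difference ran from -0.52 to 0.0735 for Pex11a and from -0.78 to 0.0343 for Vnn1, the positive values without diabetic animal 3. The cause of these changes was not tested. Group differences that kept their sign also shrank: without background correction to -0.66 for Plin2, -0.23 for Acot2, -0.25 for Crot and -0.16 for Pex11a, and under the deposited columns' titles to between -0.12 and -0.02 for the 5 genes other than Crot. The number of animals, 3 per group, limits every group difference, and signals were lowest for Acot2 and Crot.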
